A study of Mus musculus with 46 samples.

Results

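Interleukin 1 (IL-1) and interleukin 18 (IL-18) were followed through 9 genes chosen by name out of 53465 in the count table: the ligand genes Il1a, Il1b and Il18, the receptor chains Il1r1 and Il1rap, the decoy receptor Il1r2, the antagonist Il1rn, the IL-18 binding protein Il18bp and the protease Casp1. The count table was made by mRNA sequencing of liver, kidney and cerebellum. The mice had a C57BL/6 background and were 23 days old. The P195A/p150- animals (8, here p150-negative) were set against P195A/p150+ animals (8, here p150-positive). Every animal in both groups carried P195A in Adar, the gene of the RNA-editing enzyme ADAR1, so the series holds no animal with an unaltered Adar. P195A changes the Zα domain of ADAR1, which recognises nucleic acids in the Z conformation, and p150 is its isoform induced by interferon. Gene counts sum both isoforms, so they do not check the genotype. The short names stand for the labels, and how much p150 either group made was not measured. Adar averaged 7.36 ± 4.49 counts per 1000000 counts of the library (CPM) in p150-negative livers and 11.8 ± 5.14 CPM in p150-positive livers (SD, n = 7 each). It averaged 15.3 ± 9.52 CPM in p150-negative (n = 5) and 19.7 ± 11.5 CPM in p150-positive kidneys (n = 7). In cerebella the order was the other way, 34.2 ± 22.2 CPM in p150-negative (n = 8) and 23.9 ± 7.65 CPM in p150-positive animals (n = 7). Within each tissue the genotypes overlapped within 1 SD. Members were picked with earlier results of these livers in view, among them the level of Il1r2, so liver values and counts of members describe these animals and are no independent evidence.

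Of 46 libraries, 41 were used. In 5 libraries the genes that mark the labelled organ stood at no more than 0.825% of that organ's median, against at least 59.8% in the others. Genes of another organ were high in them: the liver-labelled library of animal 2 held kidney and adrenal genes, the kidney-labelled library of animal 2 stomach genes, those of animals 11 and 12 intestine genes, and the cerebellum-labelled library of animal 7 Hox genes of hindbrain and cord. Left in were 7 p150-negative and 7 p150-positive livers. There were 5 p150-negative and 7 p150-positive kidneys, and 8 p150-negative and 7 p150-positive cerebella. Totals in M counts (M, 1000000) ran from 0.532 to 3.79 in p150-negative and 1.68 to 4.30 in p150-positive livers. They ran from 0.269 to 3.50 in p150-negative and 1.30 to 4.88 in p150-positive kidneys, and from 0.945 to 5.47 in p150-negative and 2.90 to 6.24 in p150-positive cerebella. The 3 libraries under 1 M counts were all p150-negative (liver of animal 16, kidney of animal 3, cerebellum of animal 11).

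IL-1α and IL-1β act through IL-1R1, which needs the accessory chain IL-1RAP to signal through MYD88. IL-1R2 binds the same ligands without signalling, and the IL-1 receptor antagonist occupies IL-1R1 without activating it. IL-1β and IL-18 are made as precursors that caspase-1 cleaves in the inflammasome, and IL-18 is held in check outside the cell by its binding protein, whose gene is induced by interferon γ. In the liver, IL-1 is a classical inducer of acute-phase genes, and IL-1R2 and the receptor antagonist are known products of neutrophils and macrophages.

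Sequence is shown for 2 restraining genes and for the member that was lower in p150-negative livers, since interferon and NF-κB signals are the textbook inputs of this pathway. RefSeq start sites on GRCm38.p6 gave 12 promoters for all 9 genes, each from 250 bases before to 50 after the start. They were searched on both strands for an interferon-stimulated response element (GAAA and GAAA with 2 bases of any kind between), an interferon γ-activated site (TTCNNNGAA) and an NF-κB site (GGGA and TCC with 3 bases of any kind between). The first occurred in 3.44% of 32851 mouse promoters, the second in 8.3% and the third in 4.59%. Among the 9 members the letters of the second occurred in Il1r2, 111 bases before the start, and those of the first in Il1rap, at transcribed base 21. The other 7 genes held no match in this window. In the GENCODE M21 annotation, Il1r2 begins at 40074079 and Il18bp, on the minus strand, at 102018690. The RefSeq starts used here lie inside both of those genes, and the GENCODE starts were not searched. The 250 bases before the RefSeq start of Il1r2 (chr1:40085843-40086092, plus strand) and Il18bp (chr7:102018233-102018482, minus strand) follow. A 30-base stretch of Il1rap (chr16:26581715-26581744, plus strand) comes last, and each match is in capitals.
Il1r2: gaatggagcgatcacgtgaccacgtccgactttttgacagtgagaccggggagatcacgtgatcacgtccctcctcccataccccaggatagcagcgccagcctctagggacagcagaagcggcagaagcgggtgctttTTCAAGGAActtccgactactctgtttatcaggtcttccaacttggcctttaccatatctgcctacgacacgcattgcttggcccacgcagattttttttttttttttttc
Il18bp: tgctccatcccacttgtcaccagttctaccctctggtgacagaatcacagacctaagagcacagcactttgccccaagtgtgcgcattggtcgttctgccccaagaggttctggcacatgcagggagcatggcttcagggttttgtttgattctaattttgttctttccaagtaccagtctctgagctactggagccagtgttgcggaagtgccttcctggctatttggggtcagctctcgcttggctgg
Il1rap: tccggaggggGAAAAAGAAAgtgcggcgga

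Members passed the main test in liver alone, but not every member could be tested in kidney and cerebellum. The test of whether the genotype effect differed between tissues, given below, called no member. Higher in p150-negative livers were Il1a, the receptor Il1r1, all 3 genes that restrain the cytokines (Il1r2, Il1rn and Il18bp) and Casp1, while Il1rap was lower. Il1b and Il18 did not pass the test. Thus 7 of the 9 members, all of which were tested, were called by edgeR's quasi-likelihood test (p adjusted by Benjamini-Hochberg across the 9843 tested genes, threshold 0.05), where 11.7% of genes were called. Higher were 6 members, against 6.94% of all genes, and lower was 1, against 4.76%. Il1r2 was nearly unread in p150-positive livers, with 6 reads in all, and entered the test through the p150-negative ones. Fold changes below are log2 of p150-negative over p150-positive, with the standard error.

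**Figure D1:**
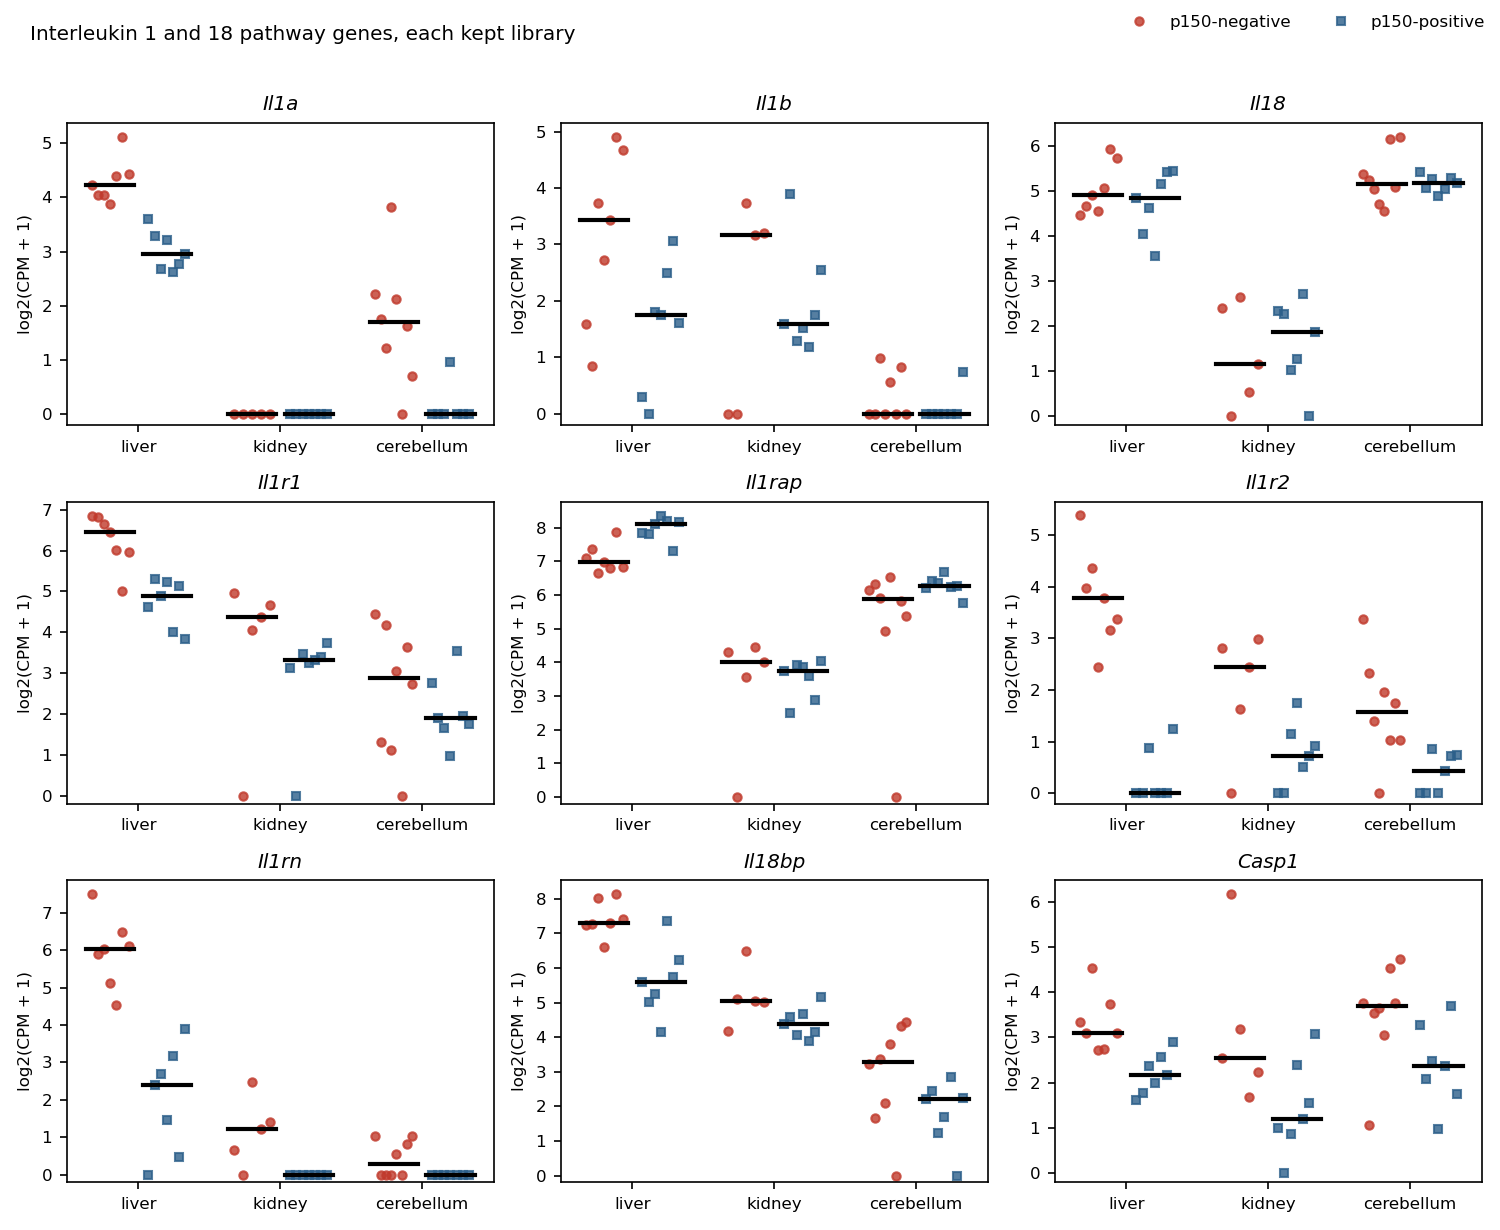
Level of each of the 9 genes in every kept library, as log2 of CPM plus 1, in p150-negative and p150-positive animals of each tissue; points are animals and lines are medians. In liver, the groups of Il1a, Il1r2 and Il1rn stand apart without overlap, while kidney and cerebellum hold many libraries at 0.

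Il1a (chromosome 2, 129299610 to 129309972, minus strand; this and all later positions on GRCm38, GENCODE M21) encodes IL-1α, an alarmin active without cleavage. It ran from 13.6 over a median of 17.7 to 33.8 CPM in p150-negative livers, against 5.17, 6.78 and 11.2 CPM in p150-positive livers. Every p150-negative liver was above every p150-positive one, the highest being animal 14. The log2 fold change was 1.44 ± 0.27 (edgeR adjusted p = 8.19e-04).

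Il1b (chromosome 2, 129364570 to 129371139, minus strand) encodes IL-1β, the ligand released after inflammasome cleavage. Its reads were few, 2 to 110 in p150-negative and 0 to 19 in p150-positive livers. In p150-negative livers the level was lowest at 0.793 CPM, with a median of 9.86 and a highest value of 29.0, against 0, 2.38 and 7.33 CPM in p150-positive livers. Animals 14 and 16 were highest, and animals 1, 3 and 9 lay within the p150-positive range. The log2 fold change of 2.06 ± 0.73 had an edgeR adjusted p of 0.0777. With the prefix of the sample identifiers as a block the adjusted p was 0.00347, and it ran as high as 0.232 when single livers were left out.

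Il18 (chromosome 9, 50554827 to 50581840, plus strand), the IL-18 gene, stood at 21.3, 29.1 and 60.4 CPM (lowest, median and highest) in p150-negative livers, against 10.7, 27.9 and 42.4 CPM in p150-positive livers. The groups overlapped over most of their range. A log2 fold change of 0.29 ± 0.32 did not pass (edgeR adjusted p = 0.653).

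The receptor chains moved in opposite directions. Il1r1 (chromosome 1, 40225080 to 40317257, plus strand), the signalling receptor, reached 31.4, 87.4 and 115 CPM in p150-negative livers, against 13.2, 28.8 and 38.7 CPM in p150-positive livers. Animal 14, lowest of the p150-negative livers, was the only one of them inside the p150-positive range. It rose by a log2 fold change of 1.65 ± 0.31 (edgeR adjusted p = 9.78e-04).

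Il1rap (chromosome 16, 26581704 to 26730117, plus strand), the accessory chain shared by receptors of the IL-1 family, was the member that fell. It measured 100, 124 and 233 CPM in p150-negative livers, against 157, 275 and 326 CPM in p150-positive livers. Animals 14 (233 CPM) and 3 (162 CPM) of the p150-negative group lay above the lowest p150-positive liver, that of animal 13. Its log2 fold change was -0.83 ± 0.20 (edgeR adjusted p = 0.00954).

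Among the restraining genes, Il1r2 (chromosome 1, 40074079 to 40125231, plus strand), whose RefSeq promoter is printed above, had the widest separation. The 7 p150-negative livers held 80, 37, 57, 11, 31, 30 and 5 reads (animals 1, 3, 8, 9, 11, 14 and 16), or 4.41, 12.7 and 40.6 CPM as lowest, median and highest. In p150-positive livers there were 0 reads in 5 libraries, 2 in animal 7 and 4 in animal 15, at most 1.36 CPM. Summed over livers, 251 p150-negative and 6 p150-positive reads gave a ratio of 52.9 per count sequenced, with an exact binomial 95% interval of 24.0 to 146 that covers counting error only. Without p150-positive animal 15, which held 4 of the 6 reads, the ratio was 137. The fitted log2 fold change was 5.66 ± 0.76 (edgeR adjusted p = 3.19e-05). It was 5.07 without animal 1 of the p150-negative and 6.75 without animal 15 of the p150-positive livers.

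Il1rn (chromosome 2, 24336853 to 24351494, plus strand), the receptor antagonist, ranged over 22.2, 64.4 and 178 CPM in p150-negative livers, against 0, 4.26 and 13.9 CPM in p150-positive livers. The groups did not overlap, and animal 1 was far above the other p150-negative livers. Its log2 fold change was 4.01 ± 0.64 (edgeR adjusted p = 1.97e-04).

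Il18bp (chromosome 7, 102014885 to 102018690, minus strand) had the highest level per kb of the restraining genes. It stood at 95.9, 156 and 279 CPM in p150-negative livers, against 16.6, 47.4 and 164 CPM in p150-positive livers. Animal 12, at 164 CPM, was the one p150-positive liver inside the p150-negative range. Il18bp rose by a log2 fold change of 1.60 ± 0.37 (edgeR adjusted p = 0.0059).

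Casp1 (chromosome 9, 5298517 to 5307265, plus strand), the protease of IL-1β and IL-18 precursors, had few reads. It showed 5.62, 7.53 and 22.3 CPM in p150-negative livers, against 2.09, 3.47 and 6.44 CPM in p150-positive livers. Animals 9 and 11 of the p150-negative group lay below the p150-positive maximum. Casp1 rose by a log2 fold change of 1.42 ± 0.36 (edgeR adjusted p = 0.0125). Without animal 8 of the p150-negative group, the highest liver, it was 1.15 with an adjusted p of 0.0536 (0.194 at most over the alternatives).

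**Figure D2:**
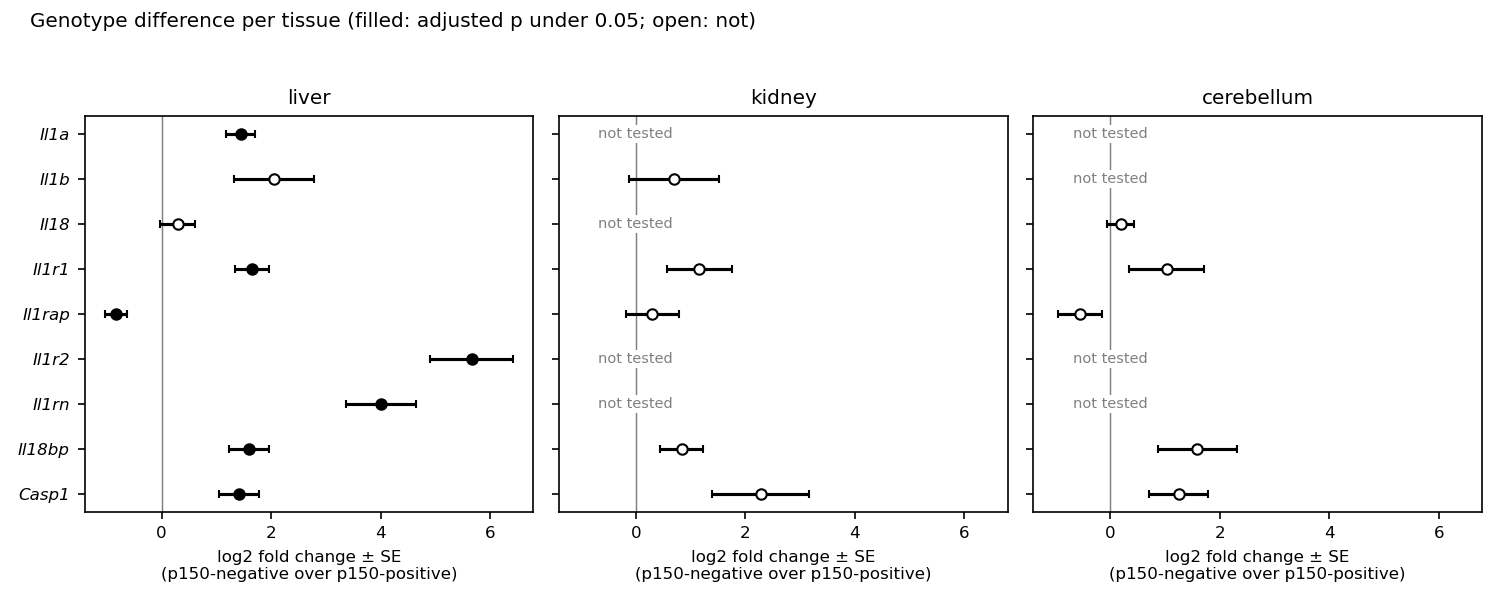
Log2 fold change (p150-negative over p150-positive) with its standard error for each tested member in liver, kidney and cerebellum; filled points were called at an adjusted p under 0.05. Called points are found in liver, 6 to the right of 0 and Il1rap at -0.83 to the left.

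With the liver-labelled library of animal 2 put back, Il1r2 (5.51 ± 0.82, edgeR adjusted p = 4.58e-04) and Il1rn (3.81 ± 0.84, adjusted p = 0.00877) were the 2 members still called. The other 5 kept their sign but not their call, from Il1r1 (1.45 ± 0.46, adjusted p = 0.0664) to Il1a (1.23 ± 0.56, adjusted p = 0.215). Sample identifiers carry 4 prefixes whose meaning the labels do not give, each with livers of both genotypes. Within them, Il1a, Il1r2, Il1rn, Il18bp and Casp1 kept their direction in 4 of 4. In the prefix with 1 liver per genotype that held animal 14, Il1r1 differed by -0.13 and Il1rap by 0.57 on the log2 CPM scale, against the other 3 prefixes, where Il1r1 differed by 1.67 to 2.17 and Il1rap by -1.42 to -0.61.

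Set per kilobase of merged exon, which counts every annotated isoform, Il18bp had the highest mean level in p150-negative livers, at 59.9 CPM per kb. Il18 followed at 33.7, then Il1rn at 13.2, Il1r1 at 12.8, Il1rap at 12.3, Il1a at 9.90, Il1r2 at 8.18, Casp1 at 6.70 and Il1b at 6.30 CPM per kb. In p150-positive livers the order was Il18 at 27.2, Il1rap at 22.5, Il18bp at 20.0, Il1r1 at 4.27, Il1a at 3.72, Casp1 at 2.53, Il1b at 1.43, Il1rn at 0.872 and Il1r2 at 0.164 CPM per kb. Thus Il18bp stood above Il18 in the first order and below it in the second.

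Ratios within each liver carried the same contrast and are given without a test, because their genes were chosen with results known. Reads per kb of Il18bp over those of Il18 (each count plus 0.5) were 1.09, 1.63 and 3.04 (lowest, median and highest) in p150-negative livers, against 0.429, 0.578 and 1.61 in p150-positive livers. Animal 12 was the p150-positive liver at 1.61. The sum of Il1rn and Il1r2 over the sum of Il1a and Il1b was 0.618, 0.849 and 5.20 in p150-negative livers, against 0.0139, 0.190 and 0.715 in p150-positive livers. In kidney, Il18bp over Il18 was 1.33, 6.47 and 16.5 in p150-negative and 0.820, 4.22 and 53.5 in p150-positive animals, read from at most 15 Il18 reads per library. The p150-positive range enclosed the other. The values of 6.47 (animal 3) and 53.5 (animal 13) came from libraries with 0 Il18 reads. In cerebellum the ratio had a median of 0.0833 in p150-negative and 0.0302 in p150-positive animals, so Il18 exceeded its binding protein there in every library.

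**Figure D3:**
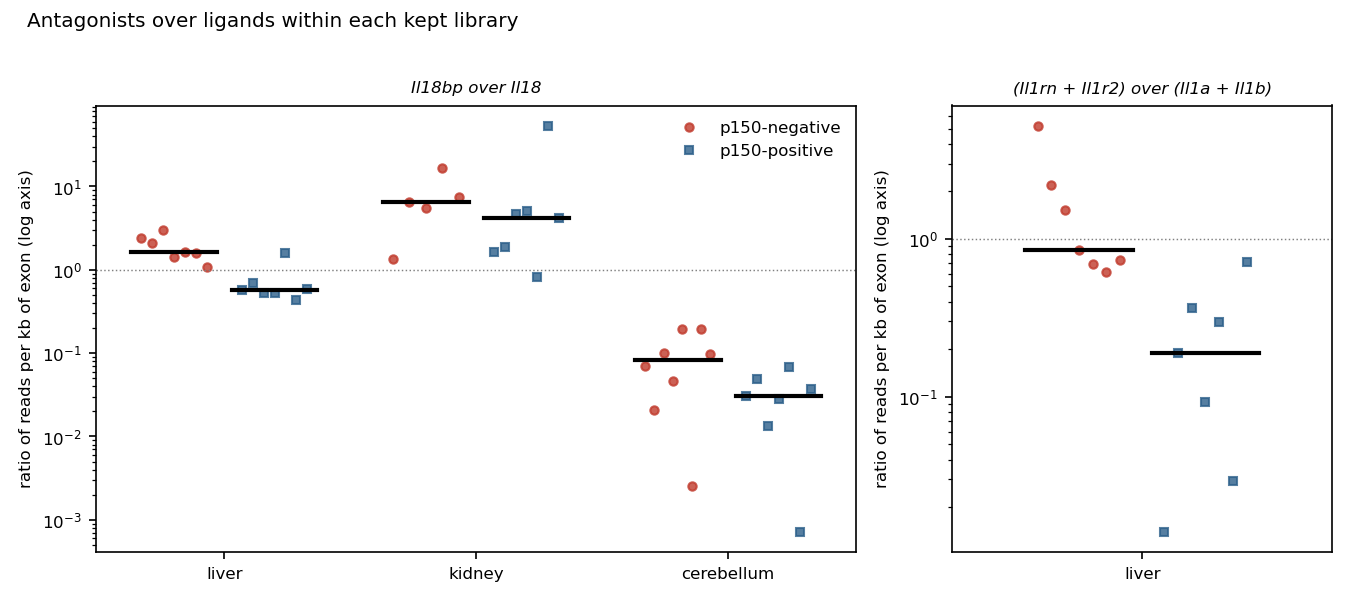
Ratio of reads per kb of exon in each kept library, on a log axis, for Il18bp over Il18 in all 3 tissues (left) and for Il1rn plus Il1r2 over Il1a plus Il1b in liver (right); lines are medians. In liver the p150-negative medians are 1.63 and 0.849, against 0.578 and 0.190 in p150-positive livers.

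Markers of myeloid cells moved with these genes. In whole-organ RNA, more or fewer cells of a type cannot be told apart from more or less RNA per cell. Summed neutrophil markers were 451, 745 and 1671 CPM (lowest, median and highest) in p150-negative livers, against 27.3, 73.6 and 178 CPM in p150-positive livers. Of the 11 listed, 9 were tested and 9 were called higher, where 6.94% of all tested genes were. Ly6g, a defining neutrophil gene, had reads in 6 of 7 p150-negative livers and was at 0 in 6 of 7 p150-positive livers. Monocyte and macrophage markers summed to 1388, 2098 and 3221 CPM in p150-negative livers, against 434, 658 and 925 CPM in p150-positive livers, with 12 of 13 called higher. The exception was the Kupffer cell gene Clec4f (0.61 ± 0.28, edgeR adjusted p = 0.197). T and NK cell markers had a median of 14.2 CPM in p150-negative and 9.53 CPM in p150-positive livers. The part of these cells in the differences of Il1r2, Il1rn, Il18bp, Il1r1, Il1a and Casp1 was not tested.

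**Figure D4:**
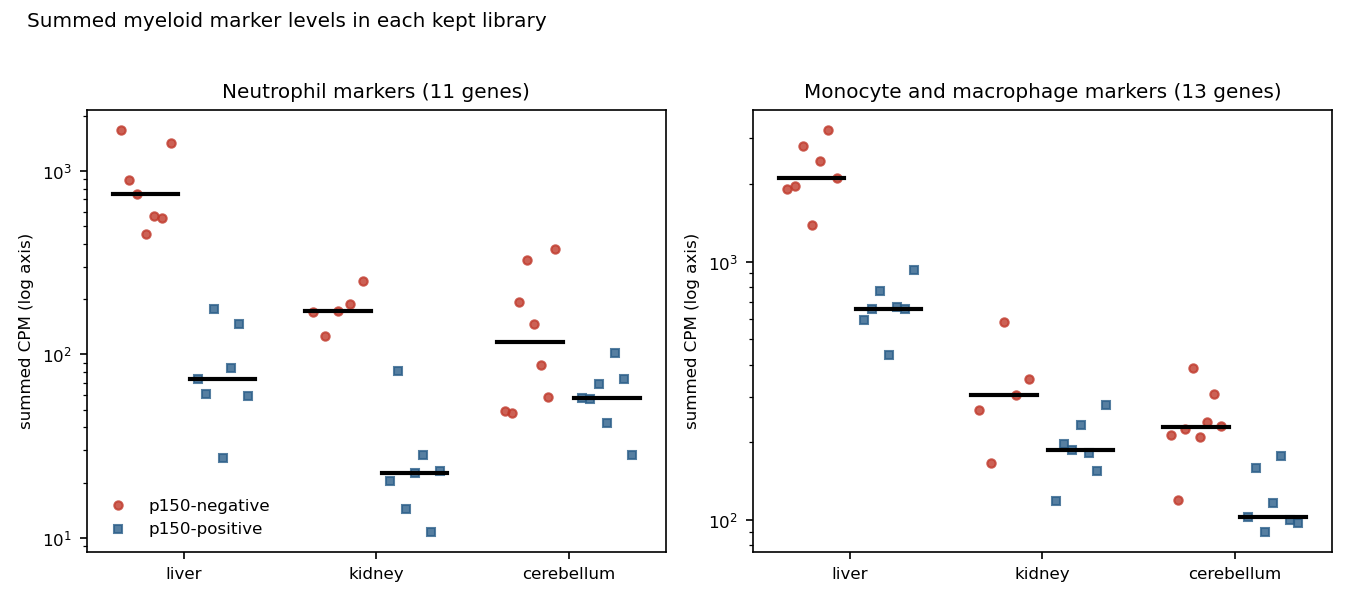
Summed CPM of neutrophil and of monocyte and macrophage markers in each kept library by tissue, on a log axis; points are animals and lines are medians. In liver, both sums are higher in every p150-negative animal (451 to 1671 and 1388 to 3221 CPM) than in any p150-positive animal.

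Other genes of the pathway came from lists chosen by function, but with earlier results of these data known, so their counts are no independent evidence. In liver, 6.94% of all tested genes were called higher and 4.76% lower, and the median log2 fold change of all genes was -0.04. Of 17 genes of MYD88 signalling, all tested, 3 were called higher and 0 lower, with a list median of 0.21. They were Irak3, an inhibitory kinase homologue of the pathway (3.61 ± 0.53, edgeR adjusted p = 8.65e-05), the adaptor Myd88 (1.03 ± 0.21, 0.00244) and the ubiquitin ligase Traf6 (1.03 ± 0.28, 0.017). Irak2 (0.76 ± 0.28, edgeR adjusted p = 0.0959) and Ikbkb (-0.43 ± 0.17, 0.124) did not pass. Among other ligands and receptors of the family 2 of 11 could be tested: the alarmin Il33 rose (1.41 ± 0.31, edgeR adjusted p = 0.00427), and the inhibitory receptor Sigirr stood at -0.23 ± 0.18 (0.521). Inflammasome genes gave 0 calls by edgeR among 3 tested of 10 (2 at an unadjusted p under 0.05 and 1 by DESeq2), with Casp4 at 1.60 ± 0.60 (edgeR adjusted p = 0.0998) and the pore-forming Gsdmd at 0.59 ± 0.22 (0.106). One gene of the IL-18 and interferon γ axis was tested of 8, Cxcl9, at 0.63 ± 0.56 (edgeR adjusted p = 0.561). Acute-phase and other IL-1-responsive genes, whose rise was known before they were listed, were called higher in 10 of 11 tested, with a median of 3.64, among them the serum amyloid genes Saa2 (5.17 ± 0.68) and Saa1 (4.46 ± 0.59) and the orosomucoid Orm2 (5.44 ± 0.81).

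In kidney, 5 members passed the filter and 0 were called by edgeR, where 0.694% of 11957 genes were called. At an unadjusted p under 0.05 there were 2, Il18bp and Casp1, and DESeq2 called 0. Il18bp stood at 17.1, 33.4, 88.2, 32.1 and 31.1 CPM in the p150-negative kidneys of animals 1, 3, 8, 9 and 16, against 13.7, 19.9 and 35.1 CPM (lowest, median and highest) in p150-positive kidneys. Animal 8 was above all others and the remaining 4 overlapped the p150-positive range (log2 fold change 0.84 ± 0.39, edgeR adjusted p = 0.596). The kidney library of animal 8 also held 79.5 CPM of adrenal markers, against at most 9.02 CPM in p150-positive kidneys. What part adrenal RNA had in its values was not tested. Casp1 measured 4.86, 70.6, 8.05, 2.23 and 3.69 CPM in those p150-negative kidneys, against 0, 1.28 and 7.47 CPM in p150-positive kidneys. The 70.6 CPM of animal 3 came from 19 reads in the shallowest library. The fit gave 2.28 ± 0.89 (edgeR adjusted p = 0.413) and 0.93 without animal 3.

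Il1r1 had 30.0, 0, 15.8, 19.6 and 24.6 CPM in the 5 p150-negative kidneys, against 0, 8.98 and 12.3 CPM in p150-positive ones. Except for animal 3, with 0 reads, the p150-negative kidneys lay above all p150-positive ones (1.16 ± 0.59, edgeR adjusted p = 0.653). Il1rap (0.30 ± 0.48, edgeR adjusted p = 0.973) and Il1b (0.70 ± 0.82, 0.945) did not pass either. The adjusted p of Il1b rests on 0, 0, 35, 18 and 20 reads in p150-negative kidneys, against 3 to 18 in p150-positive ones.

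Of the members not tested in kidney, Il1a had 0 reads in all 12 libraries, and the 3-read limit that a count of 0 allows lay between 0.615 and 11.1 CPM. Il1rn had 2, 0, 13, 3 and 4 reads in p150-negative kidneys and 0 in all 7 p150-positive ones. Relative to summed library totals it was 13.3-fold higher in p150-negative kidneys with the p150-positive group set at 3 reads. That value leaves out the counting error of the 22 p150-negative reads and the spread between animals, so it is no lower bound. Animal 8 held 13 of the 22 reads, and without animal 8 the value was 7.30-fold. Without the filter on low counts Il1rn was the 1 member called (edgeR adjusted p = 0.0381). Il1r2 had 21, 0, 6, 10 and 17 reads in p150-negative kidneys, against 0 to 6 in p150-positive ones (2.29 ± 0.82, edgeR adjusted p = 0.305 without the filter). Il18 had 0 to 15 reads in p150-negative and 0 to 13 in p150-positive kidneys. Neutrophil markers summed to 126 to 251 CPM in p150-negative kidneys, against 10.7 to 81.6 CPM in p150-positive ones, with 1 of 4 tested called higher (S100a8, 3.48 ± 0.64, edgeR adjusted p = 0.0147). Their part in the kidney values was not tested. Of the other pathway genes edgeR called 0 in kidney, where 17 of MYD88 signalling, 4 of the inflammasome, 4 IL-1-responsive genes and 3 other ligands and receptors were tested. At an unadjusted p under 0.05 stood 1 inflammasome gene, Casp4 (1.80 ± 0.59, edgeR adjusted p = 0.275), which DESeq2 called, and 3 IL-1-responsive genes, led by Lcn2 (2.36 ± 0.70, 0.18) and the complement gene C3 (1.28 ± 0.45, 0.32).

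In cerebellum, 5 members passed the filter and 0 were called by edgeR, where 0.997% of 13146 genes were called. Again 2 had an unadjusted p under 0.05, Il18bp and Casp1, and DESeq2 called 0. Il18bp ran over 0, 8.79 and 20.5 CPM (lowest, median and highest) in p150-negative cerebella, against 0, 3.63 and 6.22 CPM in p150-positive ones. In 5 of 8 p150-negative cerebella it was above every p150-positive one (1.59 ± 0.72, edgeR adjusted p = 0.482). Casp1 ran over 1.10, 12.0 and 25.6 CPM in p150-negative cerebella, against 0.959, 4.14 and 11.9 CPM in p150-positive ones, with overlap (1.25 ± 0.54, edgeR adjusted p = 0.452).

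Il18 was read in every cerebellum, at 22.7, 35.0 and 72.9 CPM in p150-negative and 28.8, 35.1 and 42.1 CPM in p150-positive animals, with nearly equal medians (0.19 ± 0.24, edgeR adjusted p = 0.866). Il1rap measured 0, 57.3 and 91.4 CPM in p150-negative and 52.7, 76.5 and 101 CPM in p150-positive cerebella (-0.55 ± 0.39, edgeR adjusted p = 0.729). The value of 0 was animal 11, whose library of 0.945 M counts also lacked reads of Il1r1, Il18bp and Il1a. Il1r1 did not pass (1.03 ± 0.69, edgeR adjusted p = 0.707).

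Il1a was below the filter in cerebellum. It had 17, 13, 4, 68, 7, 0, 8 and 3 reads in the p150-negative cerebella of animals 1, 2, 3, 8, 9, 11, 14 and 16, against 3 reads in animal 10 and 0 in the other 6 p150-positive cerebella. Relative to library totals, 120 summed p150-negative reads against 3 gave a ratio of 36.9, with an exact binomial 95% interval of 12.3 to 181 for counting error. Animal 8 gave 68 of those reads, and without it the ratio was 19.3. Without the filter on low counts the edgeR adjusted p was 0.0633. Il1r2 had 0 to 44 reads in p150-negative and 0 to 4 in p150-positive cerebella (2.86 ± 0.96, edgeR adjusted p = 0.285 without the filter). Il1rn had 14 reads summed over p150-negative cerebella and 0 in p150-positive ones, 4.30-fold higher with the p150-positive group set at 3 reads. Without p150-negative animal 1 the value was 3.28-fold, and neither value allows for counting error of the p150-negative reads or the spread between animals. Il1b had at most 3 reads in any cerebellum. Microglia markers summed to 110, 227 and 308 CPM in p150-negative and 113, 152 and 227 CPM in p150-positive cerebella, and edgeR and DESeq2 each called 0 of 6 tested, 4 having an unadjusted p under 0.05. Neutrophil markers summed to 47.7, 117 and 377 CPM in p150-negative and 28.4, 57.6 and 101 CPM in p150-positive cerebella. Monocyte and macrophage markers summed to 120, 229 and 388 CPM in p150-negative and 89.9, 103 and 178 CPM in p150-positive cerebella. What part these cells had in the cerebellar values was not tested. Lcn2, an IL-1-responsive gene, was called higher (4.56 ± 0.52, edgeR adjusted p = 1.65e-04), the 1 edgeR call among the pathway lists outside liver.

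Whether the genotype effect differed between tissues was tested by the interaction of genotype and tissue, and 0 members were called by edgeR in the 3 pairs. Not every member could be tested: Il1a had no usable estimate in liver minus kidney, since kidney held 0 reads, and Il1a and Il1rn did not pass the filter in kidney minus cerebellum. Il1rn had 0 reads in p150-positive kidney and cerebellum, so its differences from liver carry no size. In liver minus kidney, 1.5% of 12970 genes were called, and 119 genes with the animal as a block. Il1r2 differed by 3.39 ± 1.16 (edgeR adjusted p = 0.189) and Il1rap by -1.19 ± 0.41 (0.203), both with an unadjusted p under 0.05. With DESeq2 0 members were called in this pair. By edgeR, Il1rap passed when the kidney of animal 3 was left out (-1.34, edgeR adjusted p = 0.0415; 0.607 at most over the alternatives). In liver minus cerebellum, 2.67% of 14063 genes were called (376), and 196 with the animal as a block. There Il1a differed by -3.02 ± 0.90 (edgeR adjusted p = 0.0652), a larger fold in cerebellum from a lower level, and DESeq2 gave an adjusted p of 0.0165 while the blocked edgeR fit gave 0.377. It also passed by edgeR without animal 11 (-3.17, adjusted p = 0.0322) or 16 (-3.18, 0.0391) of the cerebella. Leaving out p150-positive animal 10 gave -4.80 (edgeR adjusted p = 0.011). The p150-positive cerebella then held 0 Il1a reads, so the -4.80 carries no size. Without p150-negative animal 8, which held 68 of the Il1a reads, the Il1a difference was -2.23. Its edgeR adjusted p was at most 0.13 over the libraries left out in turn. In that pair 2 members had an unadjusted p under 0.05. In kidney minus cerebellum, 0.114% of 14940 genes were called (17), and 9 with the block, and 0 members had an unadjusted p under 0.05 or were called by DESeq2. A difference in genotype effect between tissues was thus not shown for the members that could be tested, and was not testable for Il1a in kidney.

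Between tissues, levels of the same gene had these orders in p150-negative and then in p150-positive animals. Il1rap was highest in liver (139 ± 46.1 CPM in p150-negative, 256 ± 56.3 in p150-positive), then cerebellum (53.2 ± 29.4 and 77.2 ± 14.5) and kidney (13.2 ± 8.30 and 11.1 ± 4.07), and no neighbours overlapped within 1 SD in either genotype. Il18bp followed the order liver (181 ± 65.5 and 60.6 ± 49.2 CPM), kidney (40.4 ± 27.5 and 21.2 ± 7.28) and cerebellum (9.44 ± 7.61 and 3.09 ± 2.07), where kidney and cerebellum overlapped in p150-negative animals, and liver and kidney in p150-positive animals. Il1r1 had the same order, with kidney and cerebellum overlapping in both genotypes. Il18 was highest in cerebellum (41.8 ± 19.5 and 35.2 ± 4.49 CPM), overlapping liver (34.7 ± 15.6 and 28.1 ± 12.3), and lowest in kidney (2.24 ± 2.37 and 2.64 ± 1.96). Casp1 overlapped between all tissues in both genotypes. Il1a was highest in liver (19.5 ± 6.78 and 7.35 ± 2.19 CPM), then cerebellum (3.33 ± 4.19 and 0.137 ± 0.363, within 1 SD of 0), with 0 reads in kidney. Il1r2 averaged 15.6 ± 12.0 CPM in liver, 3.91 ± 2.85 in kidney and 2.80 ± 2.94 in cerebellum of p150-negative animals, and the 3 tissues overlapped within 1 SD. They also overlapped in p150-positive animals, between 0.313 ± 0.555 CPM in liver and 0.789 ± 0.819 CPM in kidney.

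Genes most like each member were taken over the 14 livers by Pearson's r of log2 CPM after subtracting the genotype mean, a description that shares library and depth with both genes. Each is among the highest of 7901 or 7902 candidate genes, so high values arise by selection. Il18bp was closest to Psma5 (r = 0.93), Xaf1 (0.91) and Gbp7 (0.89). Casp1 was closest to Ncbp3 (0.95) and Fcgr4 (0.91), and Il1rn to Atg16l2 (0.86), Klhdc2 (0.80) and Fcgr1 (0.79). For Il1rn and Klhdc2, r was 0.35 within p150-negative livers and 0.92 within p150-positive ones, where Il1rn had 0 to 41 reads. Il1r2 had lower values, with Mettl27 (0.71), Cd14 (0.71) and Adprm (0.70), and was read in only 2 of 7 p150-positive livers. The top gene was Riox1 for Il1a (0.80), Eef1akmt1 for Il1b (0.95), Tmsb4x for Il18 (0.88), Lrrc58 for Il1r1 (0.84) and Ghitm for Il1rap (0.87).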

How the data were processed

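The authors deposited raw read counts by gene with 46 columns, of which 0 lacked a sample. Per the labels, organs were frozen in TRIzol, RNA was DNase-treated and libraries were made with Nextera XT. The submitters' processing notes name STAR 2.4.2a, HTSeq 0.4.1 and GRCm38; annotation release and strand setting are not given in the sources used here. Without strand, reads of a gene and an antisense neighbour cannot be told apart, which touches Il1a (Gm14023), Il1b (Il1bos), Il18 (Bco2, Tex12), Il1rap (Gm20319), Il1r2 (Gm16894) and Il18bp (Numa1).

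Of 53471 entries, 6 repeated identifiers were dropped; 3433 without a symbol held 0.267% of counts. CPM used library totals. Each tissue was fitted with edgeR 4.0.16 in R 4.3.3 (quasi-likelihood test, TMM, filterByExpr with minimum count 10 and total 15), with Benjamini-Hochberg adjustment over all tested genes, and called under 0.05; DESeq2 1.42.0 was an alternative. The fits were tested on simulated data in which the changed genes were well read and every gene had the same dispersion. That does not check genes with few reads or single outlying animals. Labels give animals and not litters or extraction days, so p-values of the fits within a tissue measure the spread between animals. The animal number pairs tissues of 1 animal, per the sample titles, not genotypes. Deviations from group means of the same animal correlated from 0.000142 to 0.188 in liver and kidney, positive in 11 of 11 animals. They correlated from -0.0102 to 0.174 in liver and cerebellum (positive in 12 of 13) and -0.126 to 0.151 in kidney and cerebellum (8 of 11). The main interaction fits took the tissues of 1 animal as independent, and the block was an alternative.

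Members, lists and the 5 libraries left out were chosen with earlier results of these data known. Named were all members, up to 5 called and 2 uncalled genes per list and tissue, by smallest adjusted p, and up to 3 genes most like each member in liver among those with a mean log2 CPM of at least 3; the text gives a selection of these. Promoters are from RefSeq. Other alternatives were all 46 libraries, RLE size factors, other filters, robust dispersion, the identifier prefix as a block, Xist as a covariate, libraries of at least 1000000 counts, and each library left out.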

Additional observations from a re-analysis of the deposited data

Results flagged for a closer look

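Single animals stood apart from their group, by Dixon's criterion on CPM, in 13 of 50 groups of a gene, tissue and genotype. The criterion flags about 1 in 20 groups of normally distributed values. Low CPM do not have that form, and a group with reads in only 1 library is always flagged. The count of 13 therefore does not show an excess. In p150-negative livers the flagged values were Il1a in animal 14 (33.8 CPM), Il1r2 (40.6 CPM) and Il1rn (178 CPM) in animal 1, and Casp1 in animal 8 (22.3 CPM). In p150-positive livers it was Il18bp in animal 12 (164 CPM). In p150-negative kidneys these were Il18bp in animal 8 (88.2 CPM) and Casp1 in animal 3 (70.6 CPM), and in p150-positive kidneys, both in animal 5, Il1b (13.9 CPM) and Il1r1 (0 CPM). In p150-negative cerebella these were Il1a in animal 8 (13.2 CPM) and Il1r2 in animal 1 (9.39 CPM), and in p150-positive cerebella Il1a in animal 10 (0.959 CPM) and Il1b in animal 15 (0.675 CPM).

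Libraries left out for their other-organ RNA exceeded the highest kept p150-positive library of their label in several members. The kidney-labelled library of animal 2 (stomach genes) held Il18 at 396 CPM, Il1rn at 41.6 CPM, Il1r2 at 33.6 CPM and Il1r1 at 15.8 CPM. The kidney-labelled library of animal 11 (intestine genes) held Casp1 at 231 CPM, Il18bp at 37.2 CPM, Il18 at 28.2 CPM and Il1rn at 6.85 CPM. That of animal 12 (intestine and pancreas genes) held Il18 at 167 CPM, Casp1 at 150 CPM, Il18bp at 84.0 CPM and Il1r2 at 2.78 CPM. Kept p150-positive kidneys reached 5.56 CPM of Il18 and 7.47 CPM of Casp1. The liver-labelled library of animal 2 held Il1r2 at 7.51 CPM, and the cerebellum-labelled library of animal 7 held Il1rap at 132 CPM, against 101 CPM at most in kept p150-positive cerebella.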

How the results depend on the processing

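In liver, the signs of all 9 members held under every alternative. With all 46 labelled libraries 740 genes and 2 members were called; leaving out single livers gave 6 to 8 members, Il1b passing in 2 cases (without animal 3, adjusted p = 0.0387, or 13, 0.0224). In kidney the count of genes was 1 with all libraries, 307 by DESeq2, 141 without a filter, 32 with the prefix block, 211 without libraries under 1 M counts and 34 (without p150-negative animal 8) to 211 (without p150-negative animal 3) leaving out 1 library; members called were 1 without a filter. In cerebellum DESeq2 called 290 genes. The animal block changed counts of calls to 119, 196 and 9 in the interactions and no member's call. Liver minus kidney gave 71 genes with all libraries and 395 by DESeq2; liver minus cerebellum 697 by DESeq2; kidney minus cerebellum 131 by DESeq2, 31 without a filter, 47 without shallow libraries and 8 to 33 leaving out 1. Members called leaving out 1 library were 0 to 1 in liver minus kidney and in liver minus cerebellum; in the second, DESeq2 gave 1 and omission of shallow libraries 1. Reversed signs, all of uncalled interactions, were, in liver minus kidney, Il18 (-0.998) and Casp1 (0.18) with all libraries and Il18 (-0.069) and Casp1 (0.50) without shallow ones; in liver minus cerebellum, Il1rap (0.017) and Casp1 (-0.0896) with the block, Il18 (-0.036) and Casp1 (-0.0502) with all libraries, and Il18bp (0.036) by DESeq2; in kidney minus cerebellum, Il1r1 (-0.24) and Il1r2 (0.54) with the block, Il18 (1.07) and Casp1 (-0.14) with all libraries, and Il18 (0.21) and Casp1 (-0.13) without shallow ones. Leaving out 1 library, liver minus kidney ran from -1.35 to 0.47 for Casp1 and -0.16 to 0.59 for Il18. Liver minus cerebellum ran from -0.15 to 0.41 for Casp1, -0.0598 to 0.28 for Il18, -0.34 to 0.38 for Il18bp, -0.62 to 1.34 for Il1b and -0.0116 to 1.10 for Il1rn. The Il1rn values carry no size, since p150-positive cerebella held 0 of its reads. Nor does the -0.62 of Il1b, from the fit without p150-positive animal 15, which held all Il1b reads of that group. Kidney minus cerebellum ran from -0.27 to 1.44 for Casp1, -0.50 to 0.27 for Il18 and -0.34 to 0.50 for Il1r1. The cause of the reversed signs was not tested. Low read counts limit Il1a, Il1b, Il1r2 and Il1rn outside liver, where most libraries hold under 20 reads of each. Median totals were 2.49 M counts in p150-negative and 2.95 M in p150-positive livers. They were 2.44 and 2.34 M in kidneys, and 4.25 and 3.69 M in cerebella.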
